A study of Mus musculus with 6 samples.

Results

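The genes described here are the fetal growth genes of the let-7 axis: Lin28a and Lin28b, Igf2bp1, Igf2bp2 and Igf2bp3, and Hmga1 and Hmga2. They were chosen by symbol, with earlier results of these data known, and all 7 were found among the 24453 gene rows of the count files. The files hold bulk RNA sequencing of skin cells sorted by flow cytometry from newborn mice at postnatal day 0. There were 3 libraries labelled 2KO, with the genotype Ring1a-/- Ring1b-/-, and 3 libraries labelled control, with the genotype given only as control. Ring1a and Ring1b, whose gene symbols are Ring1 and Rnf2, encode the enzymes of Polycomb repressive complex 1 (PRC1) that attach ubiquitin to histone H2A and help keep developmental genes silent, and the series asks what that complex does in skin epithelium. Which promoter or Cre line removed the genes, the strain, and whether each library came from 1 animal are not stated in the labels, so the p-values measure the spread between these libraries, which may be technical. The labels call the cells hair follicle cells, whereas the sorting protocol beside them names the epidermis between follicles, gated on EpCAM, Sca1 and high α6-integrin.

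The LIN28 proteins bind the precursors of let-7 microRNAs and block their maturation, and they mark embryonic cells. Mature let-7 rises as tissues differentiate and represses messenger RNAs that carry matching sites in their 3′ untranslated region (UTR), among them those of Lin28a, Lin28b, the Igf2bp genes and Hmga2. The IGF2BP proteins bind RNA and control the stability, transport and translation of transcripts such as Igf2. The HMGA proteins bind AT-rich DNA through AT hooks and shape chromatin. Most of these genes are high in the fetus and low in adult tissue, and their loss or gain alters body size in mice.

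The let-7 family is shown here because its seed, bases 2 to 8 of the mature microRNA, defines the sites that the 7 genes share. All 9 mature 5p forms of let-7 and of the related miR-98 in the RefSeq table (GRCm38.p6) carry the same seed, given in capitals.
mmu-let-7a-5p: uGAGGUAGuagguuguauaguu
mmu-let-7b-5p: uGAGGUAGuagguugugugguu
mmu-let-7c-5p: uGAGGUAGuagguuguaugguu
mmu-let-7d-5p: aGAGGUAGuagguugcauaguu
mmu-let-7e-5p: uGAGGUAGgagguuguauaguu
mmu-let-7f-5p: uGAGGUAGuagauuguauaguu
mmu-let-7g-5p: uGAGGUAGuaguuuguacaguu
mmu-let-7i-5p: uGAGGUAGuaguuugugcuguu
mmu-miR-98-5p: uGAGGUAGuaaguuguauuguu

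The match to that seed on a messenger RNA reads CTACCTC, and it was searched on the sense strand of the longest 3′ UTR annotated for each gene in GENCODE vM21. Every one of the 7 genes held at least 1 match. Lin28b, Igf2bp1 and Hmga2 held 4 each, in UTRs of 4445, 6337 and 3014 bases, a number reached by 0.0802% of 13721 tested genes with an annotated 3′ UTR. Lin28a held 2, and Igf2bp2, Igf2bp3 and Hmga1 held 1 each, while 10.6% of the 13721 genes held 1 or more. Windows of 30 bases around 7 of the matches follow, 5′ to 3′ on the messenger strand with the match in capitals. They are the match nearest the stop codon for each tested gene, and for Igf2bp1 also the next 2, which like the leading one are followed by an A.
Lin28b, chr10:45381015-45381044, minus strand: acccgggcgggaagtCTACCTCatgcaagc
Igf2bp1, chr11:95961771-95961800, minus strand: gctgtgcgaagtaaaCTACCTCaaggtgtg
Igf2bp1, chr11:95959350-95959379, minus strand: cagcagtgctattaaCTACCTCagccccag
Igf2bp1, chr11:95958756-95958785, minus strand: gtataaatggatgaaCTACCTCagtcctca
Igf2bp2, chr16:22059466-22059495, minus strand: acacacaaataaaagCTACCTCaggtgttt
Igf2bp3, chr6:49086780-49086809, minus strand: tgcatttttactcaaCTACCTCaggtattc
Hmga2, chr10:120364217-120364246, minus strand: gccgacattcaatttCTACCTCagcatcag
A match of these letters is a description of the sequence, and whether let-7 acts on it in these cells was not measured.

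**Figure D1:**
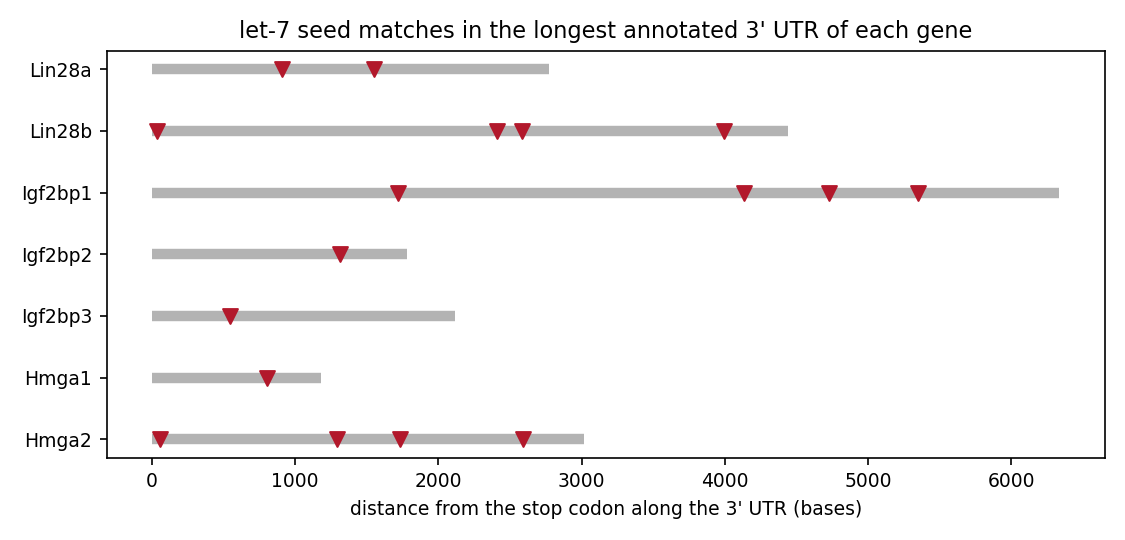
Position of each let-7 seed match (triangle) along the longest annotated 3′ UTR (grey bar) of the 7 genes, in bases from the stop codon. Lin28b, Igf2bp1 and Hmga2 carry 4 matches each, Lin28a carries 2, and the other genes carry 1.

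The libraries labelled 2KO held 24.8 to 29.9 M counts (M, mega) and those labelled control 28.2 to 30.8 M. Levels are given in counts per megacount (CPM) after scaling by edgeR's trimmed mean of M-values (TMM), and 1 count was worth 0.0323 to 0.0392 CPM. Neither targeted gene passed the test between the groups. Ring1 held 1.84, 7.34 and 14.1 CPM under the 2KO label and 19.5, 22.4 and 3.37 CPM under the control label (edgeR adjusted p = 0.537). The libraries labelled 2KO replicate 3 and control replicate 3 thus both went against their labels in Ring1, and whether their labels are right was not tested. Rnf2 stood at 75.3, 66.4 and 89.1 CPM in libraries labelled 2KO and at 67.6, 79.4 and 47.1 CPM in libraries labelled control (edgeR adjusted p = 0.615). Which part of either gene was removed is not given, and counts over a whole gene do not show it. Xist, which is made from the inactive X chromosome of females, stood at 5358, 4950 and 10.4 CPM in libraries labelled 2KO and at 2.48, 9.26 and 4552 CPM in libraries labelled control. On the first principal component, which held 55.3% of the variance, every library lay with its labelled group (51.6 to 57.3 for 2KO and -63.0 to -42.8 for control). On the second, which held 17.8% of the variance, 2KO replicate 1 (53.1) and control replicate 1 (33.1) stood apart from the other libraries (-24.7 to -18.2). Keratinocyte markers were abundant in every library, with Krt5 between 7632 and 18706 CPM, while Ly6a, which encodes the Sca1 antigen of the described gate, stayed between 1.92 and 7.27 CPM.

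In the libraries labelled 2KO, 4 of the 7 genes rose, namely Lin28b, Igf2bp1, Igf2bp2 and Hmga2, and none fell. Igf2bp3 was tested and did not pass, and Lin28a and Hmga1 had too few counts for the test. The test was edgeR's quasi-likelihood test over 14972 genes with Benjamini-Hochberg adjustment, in which an adjusted p under 0.05 counted as passed. Over all tested genes 6.61% were higher in 2KO and 2.42% lower, 9.02% in either direction. At an unadjusted p under 0.05 (edgeR) there were likewise 4 higher and 0 lower among the 5 tested. Over all 14972 tested genes, 1895 were higher and 1332 lower at that unadjusted threshold. At an adjusted p under 0.05, DESeq2 and limma-voom also gave 4 and 0 among the 5. In 4 of the 5 all 2KO libraries lay above all control libraries, as in 15.2% of all tested genes, and in none below, as in 13.1%. The 5 tested genes had a median log2 fold change of 1.46, against -0.02 over all tested genes. The genes were chosen with earlier results of these data known, so these contrasts with all tested genes are a description only. The filter on low counts keeps a gene that is silent in control libraries only if it is high in 2KO, so Lin28b could enter the test only through its level in 2KO. In bulk samples a larger share of cells that express a gene and more RNA per cell cannot be told apart.

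**Figure D2:**
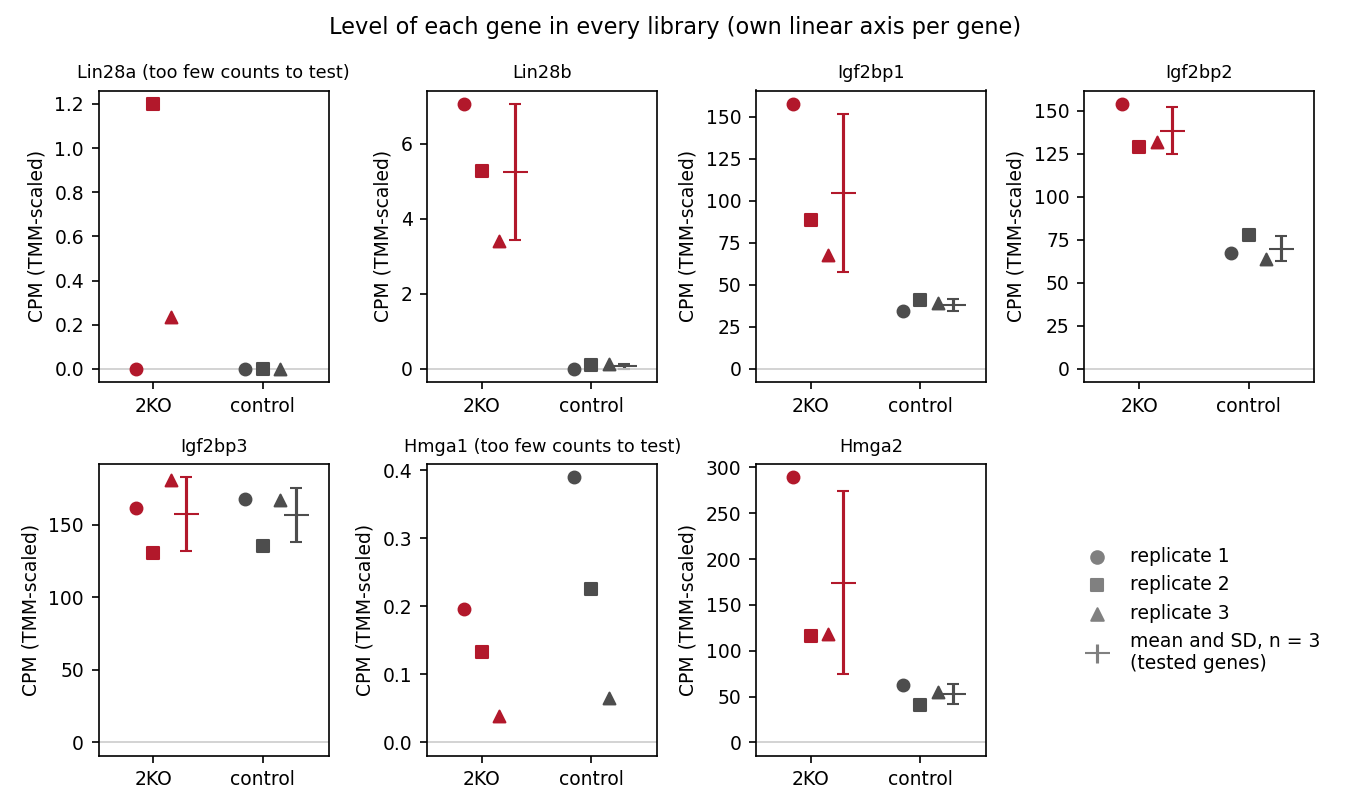
TMM-scaled CPM of the 7 genes in each library, one panel and one linear axis per gene, with libraries labelled 2KO (red) left of those labelled control (grey), marker shape for the replicate, and mean with SD (n = 3) for the 5 tested genes. All 3 red points lie above all 3 grey points for Lin28b, Igf2bp1, Igf2bp2 and Hmga2, and the groups overlap for Lin28a, Igf2bp3 and Hmga1.

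Lin28b (chr10:45376620-45486395, minus strand) encodes the LIN28 paralog that many fetal tissues and tumours express. It held 7.05, 5.27 and 3.41 CPM in libraries labelled 2KO (180, 158 and 87 counts), and at 0, 0.0968 and 0.131 CPM in those labelled control (0, 3 and 4 counts). The gene was thus near silence in each control library and readily counted in each 2KO library, and the groups did not overlap. The fitted log2 fold change was 6.01 (SE 0.88, edgeR adjusted p = 0.00332), which is 64.5-fold with a 95% interval of 16.4 to 253. Of 14972 tested genes it had the 109th highest log2 fold change. Its level remained low even so. The mean of 5.25 ± 1.82 CPM (SD, n = 3) in libraries labelled 2KO was above that of 28.5% of tested genes. That of 0.0758 ± 0.0678 CPM (SD, n = 3) in libraries labelled control was above that of 0.888%. The filter on low counts could keep Lin28b only through its level in 2KO. Its rank, its control percentile and the lack of overlap thus follow in part from the filter.

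Lin28a (chr4:134003330-134018841, minus strand), the paralog of pluripotent cells and the early embryo, had 0, 36 and 6 counts in libraries labelled 2KO and 0 counts in every library labelled control. In CPM the 2KO libraries stood at 0, 1.20 and 0.235. Its reads thus came from 2KO replicates 2 and 3, and 2KO replicate 1, which had the highest Lin28b, held none. The 2KO mean was at least 14.3-fold higher than a floor of 3 counts over the control group (0.0334 CPM). Replicate 2 held 36 of the 42 counts, and without it the bound was 3.52-fold. With no filter on low counts the edgeR adjusted p was 0.12, so no difference was shown. The transcripts of Lin28a share 3.50% of their windows of 100 bases with Gm13061, a gene on the other strand.

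The Igf2bp genes encode a family of closely related RNA-binding proteins, and they moved unequally. Igf2bp1 (chr11:95957163-96005940, minus strand), the member tied to transport and stability of transcripts in embryos, stood at 158, 88.5 and 67.8 CPM in libraries labelled 2KO and at 34.2, 41.0 and 39.1 CPM in libraries labelled control. The lowest 2KO library lay above the highest control library, and 2KO replicate 1 lay well above the other 2KO libraries. The log2 fold change was 1.46 (SE 0.30, edgeR adjusted p = 0.0155), a 2.75-fold rise with a 95% interval of 1.73 to 4.36.

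Igf2bp2 (chr16:22059009-22163299, minus strand), the member that stays on in many adult tissues and is linked to metabolism, stood at 154, 129 and 132 CPM in libraries labelled 2KO and at 67.1, 77.9 and 64.0 CPM in libraries labelled control. Both groups were tight and did not overlap. The log2 fold change was 0.99 (SE 0.17, edgeR adjusted p = 0.00756), a 1.99-fold rise with a 95% interval of 1.52 to 2.60, the smallest among the 4 genes that rose.

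Igf2bp3 (chr6:49085223-49214957, minus strand), an oncofetal member known from placenta and tumours, stood at 161, 130 and 180 CPM in libraries labelled 2KO and at 167, 135 and 167 CPM in libraries labelled control. The groups overlapped throughout their range. The log2 fold change was 0.01 (SE 0.18, edgeR adjusted p = 0.99), and its 95% interval ran from 0.758-fold to 1.33-fold, which leaves out the folds fitted for the other family members. Igf2bp3 shares 1529 exon bases with Malsu1, which encodes a mitochondrial ribosome factor on the opposite strand, and the strand setting of the counting is not given, so reads of the overlap cannot be assigned. Malsu1 itself stood at 17.1 to 19.2 CPM in libraries labelled 2KO and at 14.8 to 18.2 CPM in libraries labelled control (edgeR adjusted p = 0.901).

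Per length of exon the 3 Igf2bp genes can be set side by side. In libraries labelled 2KO, Igf2bp3 averaged 19.3 ± 3.10, Igf2bp2 18.7 ± 1.84 and Igf2bp1 10.8 ± 4.86 CPM per kb, against 19.2 ± 2.25, 9.41 ± 0.982 and 3.94 ± 0.363 CPM per kb in libraries labelled control (SD, n = 3 each). In control libraries the order Igf2bp3, Igf2bp2, Igf2bp1 thus held without overlap, whereas Igf2bp3 and Igf2bp2 lay within each other's spread in 2KO libraries. Igf2bp3 made up 34.7%, 37.5% and 47.1% of the family's summed CPM per kb in libraries labelled 2KO, and 61.9%, 52.9% and 61.7% in libraries labelled control. The count ratio of Igf2bp1 to Igf2bp3 was 0.979, 0.679 and 0.376 in libraries labelled 2KO and 0.205, 0.304 and 0.234 in libraries labelled control. That of Igf2bp2 to Igf2bp3 was 0.956, 0.990 and 0.732 in libraries labelled 2KO and 0.401, 0.576 and 0.384 in libraries labelled control. Neither ratio overlapped between the groups, and each had a two-sided exact permutation p of 0.1, the smallest that 3 against 3 libraries allow (0.15 adjusted over the 3 ratios computed). The ratio of Igf2bp1 to Igf2bp2 overlapped between the groups (exact permutation p = 0.3).

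**Figure D3:**
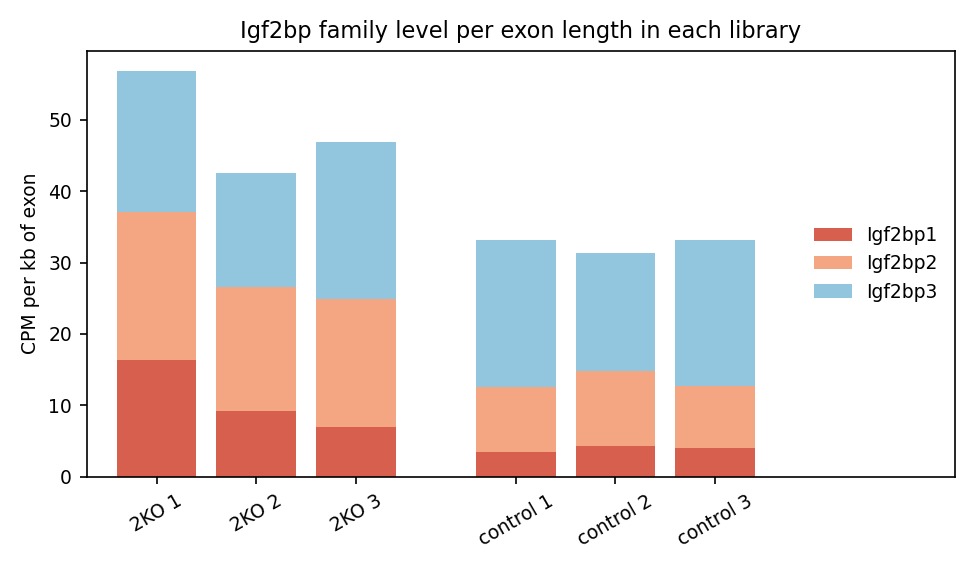
Stacked CPM per kb of exon of Igf2bp1, Igf2bp2 and Igf2bp3 in each library, those labelled 2KO left of those labelled control. The Igf2bp3 segment is of similar height in both groups, while the segments of Igf2bp1 and Igf2bp2 are taller in every 2KO library.

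Hmga2 (chr10:120361275-120476469, minus strand) encodes a chromatin protein of growing mesenchyme and stem cells whose loss gives the pygmy mouse. It stood at 289, 116 and 118 CPM in libraries labelled 2KO and at 62.2, 41.2 and 54.7 CPM in libraries labelled control. Every 2KO library lay above every control library, with 2KO replicate 1 far above the other 2KO libraries. The log2 fold change was 1.73 (SE 0.36, edgeR adjusted p = 0.0162), a 3.31-fold rise with a 95% interval of 1.90 to 5.77. Per exon length it went with the abundant members, at 25.8 ± 14.7 CPM per kb in libraries labelled 2KO and 7.78 ± 1.57 CPM per kb in libraries labelled control. The separate row of the pseudogene Hmga2-ps1 held 15 to 40 counts in libraries labelled 2KO and 12 to 66 in libraries labelled control, and did not pass (edgeR adjusted p = 0.824).

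Hmga1 (chr17:27556497-27563674, plus strand), the paralog usually found in proliferating cells, had 5, 4 and 1 counts in libraries labelled 2KO and 11, 7 and 2 in libraries labelled control. The groups overlapped at this depth, and with no filter on low counts the log2 fold change was -0.87 (SE 1.65, edgeR adjusted p = 0.821). Of the windows of 100 bases in Hmga1 transcripts, 40.1% also occur in transcripts of other genes. Whether Hmga1 is low in these cells or its reads were set aside as shared was not tested, so its values are uncertain.

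Set side by side per exon length, the genes ran in libraries labelled 2KO from Hmga2 through Igf2bp3, Igf2bp2 and Igf2bp1 to Lin28b (0.579 ± 0.201 CPM per kb), Lin28a (0.120 ± 0.159) and Hmga1 (0.0578 ± 0.0371). In libraries labelled control the order was Igf2bp3, Igf2bp2, Hmga2, Igf2bp1, Hmga1 (0.107 ± 0.0764 CPM per kb), Lin28b (0.00837 ± 0.00748) and Lin28a at 0 (SD, n = 3 each). In 2KO libraries the values of Lin28a and Hmga1 overlapped, and so did those of Hmga2, Igf2bp3 and Igf2bp2. The range of Igf2bp1 reached into that of Igf2bp3 there. In control libraries the values of Igf2bp2 and Hmga2 overlapped, and Lin28b was, like Lin28a, at 0 in control replicate 1.

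The calls rested on the libraries to different degrees. Lin28b passed in all 16 alternative settings, with log2 fold changes between 5.22 and 6.83. Igf2bp2 passed in 15 of them and missed the threshold with both libraries numbered 3 left out (edgeR adjusted p = 0.0898). Igf2bp1 missed it without control replicate 3 (edgeR adjusted p = 0.0508), with Xist as a covariate (0.0658) and without both libraries numbered 3 (0.0542). Hmga2 missed it without control replicate 2 (edgeR adjusted p = 0.0533), without control replicate 3 (0.0506), with Xist as a covariate (0.0754) and without both libraries numbered 3 (0.0855). All 4 genes kept a positive log2 fold change in each setting. Without 2KO replicate 1 the log2 fold change was 1.05 for Igf2bp1 and 1.16 for Hmga2, and both still passed (edgeR adjusted p = 0.0223 and 0.0166).

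**Figure D4:**
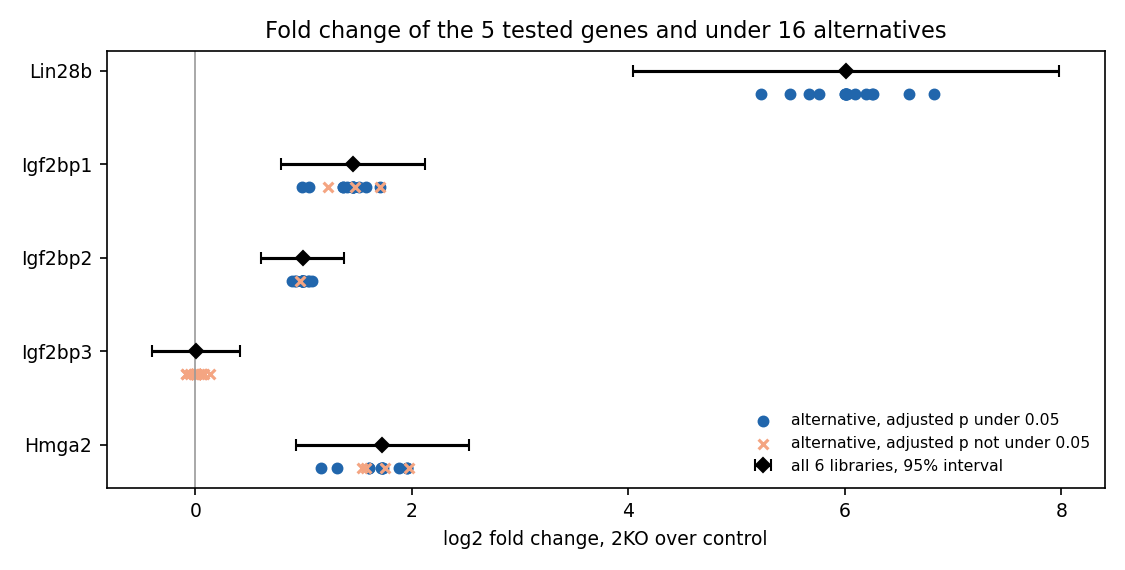
Log2 fold change of libraries labelled 2KO over libraries labelled control for the 5 tested genes, with all 6 libraries (black diamond, 95% interval) and under 16 alternative settings (points below it; blue circles have an adjusted p under 0.05, orange crosses do not). Every point of Lin28b, Igf2bp1, Igf2bp2 and Hmga2 lies right of 0, whereas those of Igf2bp3 lie between -0.09 and 0.14.

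Among the libraries labelled 2KO, replicate 1 had the highest CPM of Lin28b, Igf2bp1, Igf2bp2 and Hmga2. For Lin28b and Igf2bp1 the order was replicate 1, then 2, then 3. Igf2bp3 had another order, highest in replicate 3 and lowest in replicate 2. These are 3 libraries, and no test was made of the order.

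For each gene that rose, the 3 tested genes with the most similar log2 CPM over the 6 libraries are named by Pearson's r, as a description. Genes with a mean under 2 CPM, or a symbol that starts with Gm, Mir or Snor or ends with Rik, were left out before ranking. The points share the step between the groups, and other genes that rose therefore score high. Nearest to Lin28b were Ntng2, a netrin of axon guidance, Wt1, a factor of kidney and gonad, and Bcorl1, a corepressor of variant Polycomb complexes (r of 0.997, 0.997 and 0.997). Nearest to Igf2bp1 were Cers2, a ceramide synthase, Hs6st2, a heparan sulfate sulfotransferase, and the translation factor Eif5b (0.995, 0.992 and 0.991), of which Eif5b did not pass (edgeR adjusted p = 0.302). Nearest to Igf2bp2 were the kinase Nrk, the adenylyl cyclase Adcy1 and Rian, a noncoding RNA of the Dlk1-Meg3 imprinted domain (0.998, 0.998 and 0.998). Nearest to Hmga2 were Vcp, an ATPase of protein turnover, the ligand Edn3, and the zinc finger gene Zfp217 (0.989 each), of which Edn3 alone passed (edgeR adjusted p = 0.0274). The calls of Cers2, Hs6st2 and Edn3 were lost in 9, 8 and 8 of the 16 alternative settings.

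The promoters of the 6 genes that could be looked up differ widely in CG dinucleotides, which PRC1-bound promoters in mammals tend to be rich in. The RefSeq table (GRCm38.p6) held promoters for 6 of the genes, all but Igf2bp1. In the 250 bases before the start, CG occurred 40 times for Igf2bp2, 34 or 35 times at the starts of Hmga1, 21 times for Igf2bp3, 8 times for Hmga2, 7 times for Lin28a and 6 times for Lin28b, and the median of 32851 promoters was 6. At least 40 occurrences were found in 1.31% of those promoters, and at least 8 in 43.0%. Among genes that rose, these 250 bases were thus rich in CG for Igf2bp2 and near the median for Hmga2 and Lin28b. Bases after the start were not counted. The pair shown here, with CG in capitals, holds the most and the middle number among the 3 risen genes in the table. The Lin28b start used in the table lies inside the longest annotated gene, so another start may apply to these cells.
Igf2bp2, chr16:22163300-22163549, minus strand: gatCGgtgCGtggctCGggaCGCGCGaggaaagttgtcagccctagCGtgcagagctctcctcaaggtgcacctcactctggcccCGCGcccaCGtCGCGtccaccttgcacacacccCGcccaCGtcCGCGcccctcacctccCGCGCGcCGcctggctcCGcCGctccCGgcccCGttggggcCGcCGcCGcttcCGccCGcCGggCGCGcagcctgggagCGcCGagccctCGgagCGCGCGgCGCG
Hmga2, chr10:120476470-120476719, minus strand: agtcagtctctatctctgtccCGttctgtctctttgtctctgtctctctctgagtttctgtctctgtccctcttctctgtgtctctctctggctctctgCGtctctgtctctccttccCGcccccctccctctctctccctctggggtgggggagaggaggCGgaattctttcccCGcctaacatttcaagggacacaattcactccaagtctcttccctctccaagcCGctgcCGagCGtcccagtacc

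The let-7 genes themselves could be followed only through rows of their hairpins. The 12 rows of let-7 genes and Mir98 summed to 58, 29 and 22 counts in libraries labelled 2KO and 58, 51 and 69 in libraries labelled control. No row held more than 31 counts in a library, and these reads come from precursors or host transcripts, not from mature microRNA. Mirlet7g and Mirlet7d had enough counts for the test and did not pass, with log2 fold changes of -1.22 (SE 0.83, edgeR adjusted p = 0.455) and 0.41 (SE 1.35, edgeR adjusted p = 0.912). Mirlet7g held 17, 12 and 4 counts in libraries labelled 2KO and 28, 27 and 31 in libraries labelled control. All its 2KO libraries lay below all control libraries, as in 13.1% of all tested genes, whereas Mirlet7d overlapped. A change of mature let-7 was therefore not measurable here.

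Genes for proteins that make or use microRNAs are few, and at the share of all tested genes (9.02% in either direction) few calls would fall among them. Of 18 tested genes for microRNA machinery and LIN28 partners, none passed in the edgeR fit, and the median log2 fold change was -0.02. At an unadjusted p under 0.05 (edgeR), 2 were higher, Trim25 and Trim71, and 0 lower, against 1895 and 1332 of all 14972 tested genes. One gene of the list rose with no low-count filter, with the CPM filter and with DESeq2. The list's most abundant genes were Tnrc6b, a scaffold of silencing complexes, at 414 CPM in libraries labelled 2KO and 535 CPM in libraries labelled control (edgeR adjusted p = 0.325), and Ago2, the slicing argonaute, at 337 and 270 CPM (0.254). Zcchc11 and Zcchc6, the uridylyl transferases that LIN28 recruits to let-7 precursors, were named after their values were seen and stood at 110 and 260 CPM in libraries labelled 2KO and at 126 and 261 CPM in libraries labelled control (edgeR adjusted p = 0.661 and 0.993).

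Among other known let-7 targets the share of calls was near that of all tested genes (6.61% higher, 2.42% lower). Of 24 tested, Arid3b, a DNA-binding regulator, rose and none fell, with a list median of 0.15. At an unadjusted p under 0.05, 5 were higher and 2 lower (edgeR), against 1895 and 1332 of all 14972 tested genes. DESeq2 called 2 of the 24 higher and 2 lower. Arid3b stood at 42.6, 12.3 and 7.76 CPM in libraries labelled 2KO and at 0.957, 5.65 and 1.86 CPM in libraries labelled control (log2 fold change 2.88, SE 0.77, edgeR adjusted p = 0.0480). Its groups did not overlap, but the call was lost in 8 of the 16 alternative settings, among them those without control replicate 1 (0.114) or 3 (0.144) and without 2KO replicate 1 (0.148) or 2 (0.0643). Trim71, which both lists hold, a ubiquitin ligase and RNA-binding protein of embryonic cells, was named after its values were seen. It stood at 5.33, 3.20 and 2.12 CPM in libraries labelled 2KO and at 0.284, 0.645 and 0.948 CPM in libraries labelled control, without overlap (log2 fold change 2.49, edgeR adjusted p = 0.054). The growth regulators Myc, Mycn, Nras, Ccnd1, Ccnd2, Cdk6 and Igf1r, which fall outside the rule for named genes, were all among the 23 that did not pass. At an unadjusted p under 0.05 (edgeR), Igf1r was among the higher (log2 fold change 0.62) and Mycn among the lower (-0.91).

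Seed matches can also be counted over all genes. Of 26 tested genes with 3 or more matches, 6 rose in 2KO and none fell, with a median log2 fold change of 0.51. Lin28b, Igf2bp1 and Hmga2 were 3 of the 6. Without these 3 genes, 3 of 23 rose and the median was 0.33, against 6.93% and -0.01 over all 13721 tested genes with a 3′ UTR. Genes with 1 match rose in 8.21% of 1279 cases and those with 2 in 7.19% of 153, with medians of 0.01 and -0.02. The count of matches goes with UTR length, whose median was 4460 bases for 3 or more matches and 1067 bases for none, and no test was made.

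Fetal growth genes outside the let-7 axis, most of them imprinted, included several that rose. Of 14 tested, 8 rose in libraries labelled 2KO, against 6.61% of all tested genes, and none fell, with a median log2 fold change of 1.65. This list too was chosen with earlier results of these data known, so the contrast is a description only. At an unadjusted p under 0.05, 9 were higher and 1, Sox4, lower (edgeR), against 1895 and 1332 of all 14972 tested genes. Igf2, the fetal growth factor whose messenger RNA the IGF2BP proteins bind, stood at 1396, 2710 and 2078 CPM in libraries labelled 2KO and at 289, 733 and 932 CPM in libraries labelled control (log2 fold change 1.66, SE 0.40, edgeR adjusted p = 0.0312). Its call was lost with control replicate 2 (0.0660), 2KO replicate 2 (0.0976) or 2KO replicate 3 (0.0797) left out. H19, the noncoding RNA next to Igf2, overlapped between the groups (3371 and 2411 CPM, edgeR adjusted p = 0.536).

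Within that list the noncoding RNA Meg3 had the highest log2 fold change (5.12, SE 0.38, edgeR adjusted p = 0.000179), at a mean of 297 CPM in libraries labelled 2KO and 8.55 CPM in libraries labelled control. The neural and progenitor factor Sox11 followed with 3.50, Dlk1 with 3.23, and the cell cycle inhibitor Cdkn1c with 2.40. The adaptor Grb10, which damps insulin and IGF signalling, had 2.21, Mest 1.76 and the zinc finger factor Plagl1 1.64. The call of Grb10 was lost in 4 of the 16 alternative settings, among them that without control replicate 3 (edgeR adjusted p = 0.0508). That of Sox11 was lost in 2 and that of Mest in 1, while those of Meg3, Dlk1, Cdkn1c and Plagl1 were lost in 0. With Xist as a covariate 5 genes of the list rose and 1 fell, and with both libraries numbered 3 left out 4 rose.

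**Figure D5:**
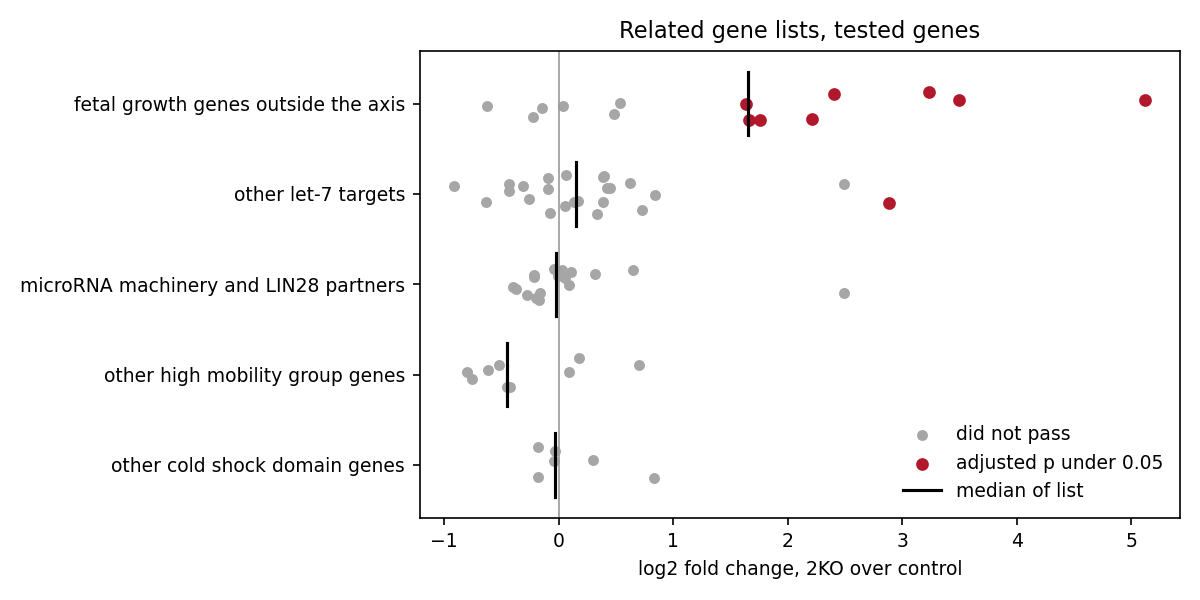
Log2 fold change of libraries labelled 2KO over libraries labelled control for the tested genes of 5 related lists, with red points for genes past the threshold, grey points for the rest and a black bar at each median. The list of fetal growth genes holds 8 red points, that of other let-7 targets holds Arid3b, and the other 3 lists hold none.

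Genes that share a name or a domain with the 7 were also counted, with 9.02% of all tested genes called in either direction. Of 9 tested genes for other high mobility group proteins none passed, with a median log2 fold change of -0.45, and the most abundant, Hmgn1, stood at 282 CPM in libraries labelled 2KO and 386 CPM in libraries labelled control (edgeR adjusted p = 0.173). Hmgn5, the next by level, stood at 65.7 and 94.1 CPM (0.261). Of 6 other genes with a cold shock domain, the fold that LIN28 carries, none passed (median -0.04). Ybx3, the most abundant of them, stood at 769 CPM in libraries labelled 2KO and 870 CPM in libraries labelled control (edgeR adjusted p = 0.687). At an unadjusted p under 0.05, 1 high mobility group gene was higher and 4 lower, and 1 cold shock gene was higher and 0 lower (edgeR). Of all 14972 tested genes, 1895 were higher and 1332 lower at that threshold. DESeq2 called 1 high mobility group gene lower.

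Markers of dermal fibroblasts and other cell types were also counted, with 6.61% of all tested genes higher in 2KO and 2.42% lower. At an unadjusted p under 0.05 (edgeR), 1895 of all 14972 tested genes were higher and 1332 lower. Of 15 tested fibroblast markers, 6 rose (Col5a1, Col6a1, Pdgfra, Thy1, Twist1 and Fbn1) and none fell. Postn was lower at an unadjusted p under 0.05 (edgeR), and DESeq2 called 1 fibroblast marker lower. With both libraries numbered 3 left out 3 rose. The summed level of the 16 markers was 1467 to 1754 CPM in libraries labelled 2KO and 1371 to 1551 CPM in libraries labelled control. Pdgfra stood at 10.2 CPM in libraries labelled 2KO and 0.896 CPM in libraries labelled control, whereas the collagens Col1a1, Col1a2 and Col3a1 did not pass, and Twist2 was at 0 in 2KO replicates 2 and 3. Summed endothelial markers were at 10.8 to 26.2 CPM in libraries labelled 2KO and 5.10 to 13.2 CPM in libraries labelled control. Flt1 was the 1 of 6 tested that rose, and DESeq2 called 2 higher. At an unadjusted p under 0.05 (edgeR), Kdr and Flt1 were higher and none lower. The Flt1 call was lost with Xist as a covariate, without control replicate 1, and without any 1 of the 2KO replicates. Summed immune markers were at 13.7 to 24.3 and 16.2 to 28.2 CPM, melanocyte markers at 18.5 to 66.7 and 25.7 to 35.3 CPM, 2KO first, with no call and no unadjusted p under 0.05 in either. Summed skeletal muscle markers stayed at or below 2.00 CPM in every library. Of the red blood cell markers, 4 of 6 were at 0 in all libraries. Of 12 follicle markers, Shh, Lrig1 and Lgr5 fell and none rose, with 1 lower when both libraries numbered 3 were left out. At an unadjusted p under 0.05 (edgeR), 2 of them were higher, Krt17 and Krt79, and 4 lower. DESeq2 called 2 higher and 4 lower, and so did the fit with a replicate block. Of 7 keratinocyte markers none passed, with Epcam higher and Trp63 lower at an unadjusted p under 0.05 (edgeR), and DESeq2 called 1 lower. The part of any of these cell types in the rise of the 4 genes was not tested.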

How the data were processed

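RNA of sorted cells was amplified from 10 ng and sequenced as single reads of 100 nt, per the labels' protocols. The authors deposited counts, whole numbers of reads per gene symbol, not normalized, 1 file per library. The submitters' processing notes name HTSeq 0.6.1 and TopHat2 2.0.13, next to DESeq2 1.6.3 and Cufflinks 2.2.1, and the build mm10. What each did, which annotation was used and the strand setting are not given there, so reads of genes that overlap on opposite strands cannot be told apart. No row lacked a name.

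Low genes were dropped with filterByExpr, the deposited counts were scaled by TMM, and groups were compared with edgeR 4.0.16 (R 4.3.3, quasi-likelihood test, no covariate). Benjamini-Hochberg adjustment ran over the 14972 genes kept. The script was tested on simulated data. SEs are the log2 fold change over the square root of F, and 95% intervals use the fit's degrees of freedom. Amplified reads are not independent molecules, so floors of 3 counts cover counting error only. Alternatives were other scaling, filters and tests (DESeq2 1.42.0, limma 3.58.1 voom), Rn45s left out, Xist as a covariate, a replicate block and libraries left out. GENCODE vM21 (GRCm38, the assembly of mm10) gave coordinates, exon lengths and transcripts. RefSeq gave microRNA and promoter sequences.

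The members and lists were chosen with earlier results of these data known. Named genes were all members and, per list, those past the threshold, or else the 2 most abundant. Results for some genes are not reported here. Those nearest in pattern needed a mean of at least 2 CPM, with 0.5 CPM added before the log2. Symbols that start with Gm, Mir or Snor or end with Rik were left out of that ranking.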

Additional observations from a re-analysis of the deposited data

How the results depend on the processing

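With all 6 libraries, 989 genes were higher and 362 lower in 2KO, and 4 of the 7 genes described here were higher. DESeq2 placed 1415 genes higher and 733 lower. With Xist as a covariate 231 genes were lower and 2 of the 7 genes higher. With both libraries numbered 3 left out, 309 genes were higher, 72 lower and 1 of the 7 higher. That comparison sets 2 against 2 libraries. With 1 library left out at a time, 615 to 854 genes were higher, 184 to 347 lower, and 2 to 4 of the 7 genes higher (2 without control replicate 3). None of the 7 genes was lower in any of these settings. Leaving out both libraries numbered 1, an alternative chosen after seeing the data, as were the counts per list and the Lin28a bound without each 2KO library, kept 4 of the 7 higher. The labels do not say whether replicate numbers pair the libraries. Deviations of same-numbered libraries from their group means correlated at 0.323, 0.0958 and -0.130, not over 0.1 in every pair, so the numbers were not taken as pairs. With the number as a replicate block, 1142 genes were higher and 540 lower, and 4 of the 7 higher. Of the named calls, that of Cers2 alone was lost under this block. Lin28a and Hmga1 could not be assessed at this depth under the filter on low counts.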
